A study of Mus musculus with 36 samples.

Results

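Goblet and tuft cells, sorted from mouse small intestine, were compared for their microRNAs (miRNAs) in 4 goblet and 3 tuft libraries, 7 of the 31 small RNA libraries for which the deposited table gave values. They were taken by their labels: goblet samples 1 to 4, and tuft samples 1, 3 and 4. The study prepared small RNA libraries from populations of the small intestinal epithelium separated by fluorescence-activated sorting, in strain C57BL6/2J mice with no treatment named, and the gates that defined goblet and tuft cells were not given in the sources used here. Both populations share that strain, tissue and library kit (TriLink CleanTag), and the labels do not say whether the libraries of a population came from separate animals, so each p-value below measures the spread between libraries. Both populations are shallow. Goblet libraries held 689763 to 1636615 listed reads and tuft libraries 475678 to 720400, and the deposited scale is reads divided by 1 factor per library, called scaled reads here. Each library lists nothing under 10 reads, which was worth 31.0 to 63.5 scaled reads in goblet and 42.5 to 68.9 in tuft libraries, so every value under 100 was raised to 100 before a test. Of 2670 entries in the table, 277 reached 100 in at least 3 of the 7 libraries and were tested: 155 annotated miRNAs and 122 entries whose names carry an offset from one (isomiRs; which end and direction the offset counts is not given in the labels). An entry under 100 in every library of 1 population was tested only if at least 3 libraries of the other reached 100. That filter fixed its direction, so its p-value is no separate support. Among miRNAs named below this holds for miR-7b-5p, miR-574-5p and miR-574-3p in goblet cells. In tuft cells it holds for miR-672-5p, miR-181c-3p and miR-139-5p.

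A mature miRNA is a short RNA cut from 1 arm, 5p or 3p, of a hairpin, and it guides Argonaute proteins to messenger RNAs that pair with its seed, so miRNAs that share a seed share many predicted targets. Goblet cells secrete the mucins of the intestinal mucus, and tuft cells are rare chemosensory cells that signal to immune cells and neurons. In gut epithelium the miR-192, miR-215 and miR-194 family is known as an abundant, differentiation-associated group, and the mir-200 family is known for holding cells in the epithelial state.

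The mature sequences below, from RefSeq on GRCm38.p6, are of miRNAs described in the text, whether or not they were called. Each is written 5′ to 3′ with the seed, bases 2 to 8, in capitals, and members of a family stand together so that shared and unlike seeds can be seen. RefSeq sequences were matched to 128 of the 155 annotated miRNAs tested. Those without a match include some with the largest differences, such as miR-5115, miR-5109 and miR-486-5p, so the list leaves them out.
miR-192-5p: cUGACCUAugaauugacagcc
miR-215-5p: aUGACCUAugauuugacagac
miR-194-5p: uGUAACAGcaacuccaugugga
miR-7a-5p: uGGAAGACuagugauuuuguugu
miR-7b-5p: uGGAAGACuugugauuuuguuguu
miR-182-5p: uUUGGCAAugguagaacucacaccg
miR-183-5p: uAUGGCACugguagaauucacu
miR-200a-3p: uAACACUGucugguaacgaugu
miR-141-3p: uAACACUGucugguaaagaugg
miR-200b-3p: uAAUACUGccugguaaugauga
miR-200c-3p: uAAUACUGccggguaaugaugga
miR-429-3p: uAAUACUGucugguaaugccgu
miR-181a-5p: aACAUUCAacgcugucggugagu
miR-181b-5p: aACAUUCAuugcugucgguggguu
miR-181c-5p: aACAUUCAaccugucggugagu
miR-181d-5p: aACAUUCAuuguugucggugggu
miR-139-5p: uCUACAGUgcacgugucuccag
miR-139-3p: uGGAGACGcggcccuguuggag
miR-672-5p: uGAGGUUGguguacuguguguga
miR-5119: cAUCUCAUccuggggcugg
let-7b-5p: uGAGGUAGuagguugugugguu
let-7g-5p: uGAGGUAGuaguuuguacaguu
miR-203-3p: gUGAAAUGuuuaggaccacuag

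Within the first family, miR-192-5p and miR-215-5p had the same seed and differed at 3 of 21 bases (C1A, A12U and C20A, counted from the 5′ end, with the base of miR-192-5p first). The 2 miR-7 sequences differed at 1 of the first 23 bases, A10U, outside the seed. The mir-200 family holds 2 seed groups, 1 with miR-200a-3p and miR-141-3p and the other with miR-200b-3p, miR-200c-3p and miR-429-3p. The genome splits that family another way. MiR-200a-3p (chr4:156054911-156054932), miR-200b-3p (chr4:156055685-156055706) and miR-429-3p (chr4:156053916-156053937) lie together on the minus strand within the long non-coding gene Gm13648, while miR-141-3p (chr6:124717917-124717938) and miR-200c-3p (chr6:124718324-124718346) lie together on chromosome 6 outside other annotated genes.

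Taking all 277 entries, 129 (46.6%) were called: 91 (32.9%) higher in goblet cells and 38 (13.7%) higher in tuft cells. A call required a limma adjusted p under 0.05, with Benjamini-Hochberg adjustment over the 277, and a difference of at least 1 on the log2 scale, always given as goblet minus tuft. The excess of goblet calls came from 4 names, miR-5102, miR-5105, miR-5109 and miR-5115, whose entries made up 58 of the 277 and 53 of the goblet calls. All other entries split evenly, 38 higher in each population and 143 not called. Among the 155 annotated miRNAs, 32 (20.6%) were called higher in goblet and 27 (17.4%) higher in tuft cells, and the median log2 difference was 0.17. Goblet and tuft libraries did not overlap in 155 of the 277 entries (56%). The values come from bulk RNA of sorted cells, so fewer cells that carry a miRNA and less of it per cell cannot be told apart.

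**Figure D1:**
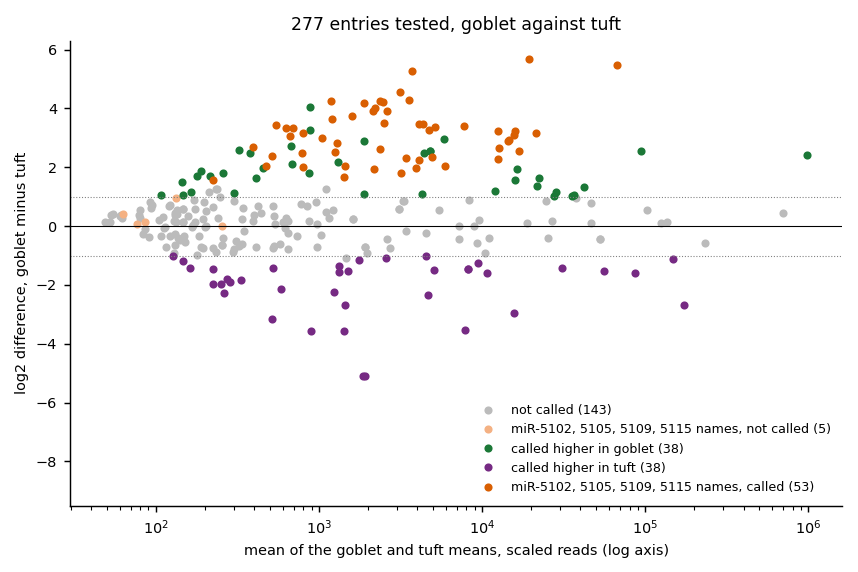
Log2 difference (goblet minus tuft) of each of the 277 entries against its mean level in scaled reads on a log axis, 1 point an entry, with dotted lines at 1 and -1. The 53 called entries named miR-5102, miR-5105, miR-5109 or miR-5115 all lie above 1, and without them 38 entries are called on each side.

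The balance of calls depended on the scale. Sums of scaled reads were 4379781 to 6156033 in goblet and 3027169 to 3275523 in tuft libraries, and a rescaling to a common total gave 66 entries higher in goblet and 59 higher in tuft cells, moving the median of the annotated miRNAs by -0.67. Median-ratio scaling gave 75 and 49, with a shift of -0.38. No call changed sign under any of these scalings. Calls of annotated miRNAs went from 32 higher in goblet and 27 higher in tuft cells to 16 and 43 with a common total, so smaller goblet differences depend on the scale.

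**Figure D2:**
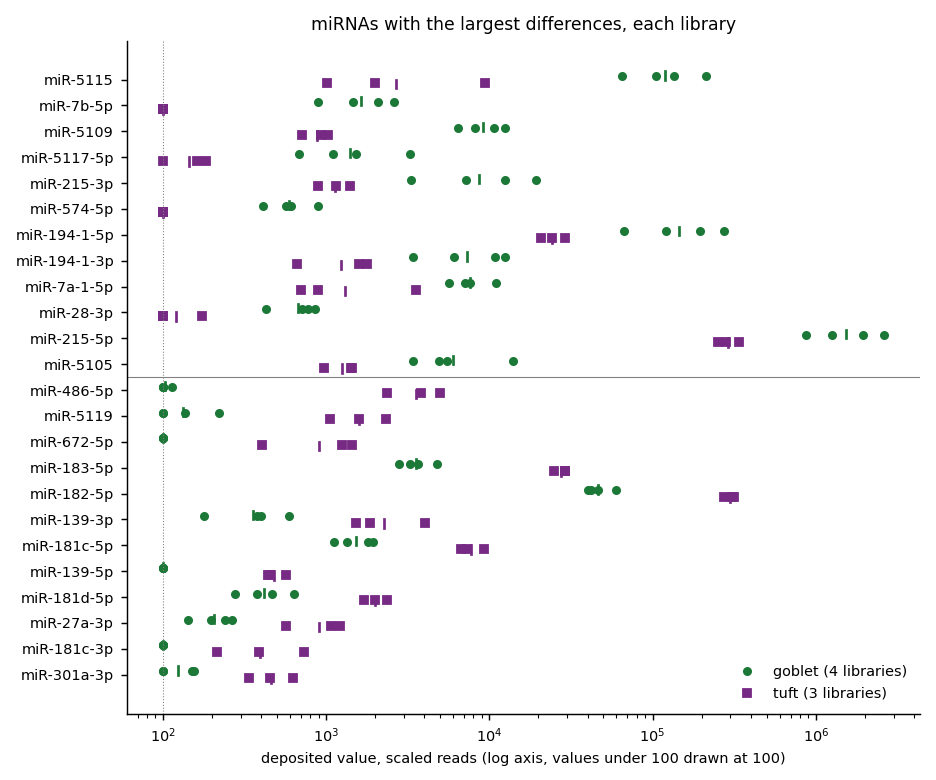
Deposited values of the 12 miRNAs with the largest called difference in each direction, in scaled reads on a log axis: circles are goblet libraries, squares tuft libraries, and short lines the geometric means after values under 100 were raised to 100. The 12 upper miRNAs were higher in goblet and the 12 lower ones higher in tuft cells, and circles and squares overlap in none of the 24 once values under 100 are set to 100. The 24 were chosen by their difference in these same libraries, so that separation is no added support. Over all 277 entries, values as deposited did not overlap in 155 (56%).

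The miR-192, miR-215 and miR-194 family was the leading group in goblet cells: 6 of 7 members tested were called higher there and 0 in tuft cells, with a median log2 difference of 2.42 against 0.17 over annotated miRNAs. Of all annotated miRNAs tested, 20.6% were called higher in goblet cells. With a common total 4 of the 7 were called, at a median of 1.75. MiR-215-5p was the most abundant entry of goblet cells, at 1265255, 2628707, 1941436 and 867806 scaled reads in replicates 1 to 4. Tuft replicates 1, 3 and 4, the order used throughout, had 337297, 283359 and 250127. The lowest goblet library exceeded the highest tuft library, and the difference was 5.34-fold (log2 2.42 ± 0.32, SE; limma adjusted p = 0.00027). As a share of the library, miR-215-5p made up 32.3% ± 10.2 (SD, n = 4) of goblet and 9.32% ± 1.60 (SD, n = 3) of tuft values, with an exact two-sided permutation p of 0.0571 (0.0762 adjusted over 8 shares), the smallest that 4 against 3 libraries can give.

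MiR-192-5p, which shares the seed of miR-215-5p, was nearly level. It had 752037, 783269, 816247 and 874797 scaled reads in goblet and 600557, 584457 and 598508 in tuft libraries, a log2 difference of 0.44 ± 0.10 that was short of the size needed for a call (limma adjusted p = 0.00526). Its share of the library was 16.4% ± 2.98 (SD, n = 4) in goblet and 19.1% ± 1.07 (SD, n = 3) in tuft cells (exact permutation p = 0.229). The ratio of miR-215-5p to miR-192-5p, which no scaling affects, was 1.68, 3.36, 2.38 and 0.992 in goblet and 0.562, 0.485 and 0.418 in tuft libraries. Summed over both, the seed group UGACCUA was 1.44 higher on the log2 scale in goblet over tuft cells, 1 of 29 called among 76 seed groups (38.2%; 21.1% higher in goblet and 17.1% higher in tuft cells). Its log2 difference fell to 0.77 with a common total, where it was no longer called.

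MiR-194, which has a seed of its own, comes from 2 hairpins, 1 beside each of those miRNAs. MiR-194-1-5p (chr1:185313325-185313346) and miR-215-5p (chr1:185313610-185313630) lie on the plus strand within the bounds of Iars2, an isoleucyl-tRNA synthetase gene, and overlap none of its exons. MiR-192-5p lies at chr19:6264857-6264877. Values of miR-194-1-5p were 121579, 274069.7, 196540.1 and 66709.9 in goblet and 24086, 29169 and 20595 in tuft libraries, 5.93-fold apart (limma adjusted p = 0.000648). MiR-194-2-5p has the same mature sequence and was listed at lower values, 25669, 52192, 39867 and 18160.1 in goblet and 7949, 12491 and 10704 in tuft libraries, 3.08-fold apart (limma adjusted p = 0.00345), a call that a common total ended (log2 0.95). How the authors divided reads of that shared sequence between the 2 hairpins is not given in the sources used here, so the locus values are uncertain.

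Passenger arms of the same hairpins differed in the same direction. MiR-215-3p had 7189, 19249, 12449 and 3302 scaled reads in goblet and 892, 1405 and 1149 in tuft libraries (7.69-fold, limma adjusted p = 0.00137). MiR-194-1-3p had 6120.5, 12495, 10775 and 3422 in goblet and 1601, 661 and 1778 in tuft libraries (5.90-fold, limma adjusted p = 0.00227). In both, the goblet libraries lay above all tuft libraries. Among all 277 entries, 155 (56%) had groups that did not overlap. The order of the goblet libraries was alike in miR-215-5p and both arms of miR-194-1, with replicate 2 highest among the 4 and replicate 4 lowest. That order was not particular to the locus. The sums of scaled reads of the goblet libraries had it too, as did miR-194-2-5p, miR-31-5p, miR-22-3p and miR-21-5p.

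The miR-7 pair, miRNAs best known from neurons and endocrine cells, was also higher in goblet cells. MiR-7b-5p had 2089, 898, 1466 and 2597 scaled reads in the goblet libraries and was listed at 0 in all 3 tuft libraries, so it was at least 16.4-fold higher in goblet cells when tuft values were set to 100 (limma adjusted p = 0.000121). MiR-7a-1-5p had 10954, 5675, 7632 and 7061 in goblet and 698, 3553 and 893 in tuft libraries (5.84-fold, limma adjusted p = 0.00257). Tuft replicate 3 stood above the other tuft libraries for miR-7a-1-5p, still under the lowest goblet library. MiR-7a-2-5p, a second entry with the same mature sequence, was called in the same direction, and how reads were divided between the 2 copies is not known. The seed group GGAAGAC of the pair differed by 2.79 on the log2 scale (limma adjusted p = 0.00311).

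Several single miRNAs were higher in goblet cells. MiR-31-5p, a miRNA studied in intestinal stem cell growth, had 22378, 40248, 29535 and 13506 scaled reads in goblet and 6911, 5439.9 and 7071 in tuft libraries (3.81-fold, limma adjusted p = 0.00136). It, miR-21-5p, miR-22-3p, miR-28-5p and miR-574-3p are outside the 12 largest and were named after their values were seen. MiR-21-5p, abundant in many growing and inflamed tissues, was 2.50-fold higher and miR-22-3p was 2.97-fold higher. A common total ended both calls (log2 0.65 and 0.90), and median-ratio scaling that of miR-21-5p (0.91). Both arms of miR-28, which lies in Lpp on chromosome 16, rose: miR-28-3p had 774, 715, 859 and 432 scaled reads in goblet and 173, 0 and 0 in tuft libraries, and miR-28-5p was 4.31-fold higher in goblet cells. MiR-574-5p had 569.8, 606, 412 and 889 in goblet libraries and 0, 89.5 and 0 in tuft libraries, where 2 of 3 listed it at 0 (5.96-fold, limma adjusted p = 0.000454). Its partner arm miR-574-3p was at least 3.63-fold higher, being listed at 0 in all tuft libraries, a call lost with a floor of 200 (log2 0.86). MiR-5117-5p had 1534, 3281, 1104 and 679 in goblet and 184, 0 and 162 in tuft libraries (9.69-fold, limma adjusted p = 0.00096).

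In tuft cells the mir-183, mir-96 and mir-182 cluster, known from sensory cells of the ear and retina, stood out: both members tested were called higher, with a median log2 difference of -2.82. Of all annotated miRNAs tested, 17.4% were called higher in tuft cells. MiR-182-5p (chr6:30165962-30165986) had 275189, 313534 and 305476 scaled reads in tuft and 46324, 40002, 42242 and 60113 in goblet libraries. The gap between the groups was several times the spread within either, and the miRNA was 6.39-fold higher in tuft cells (log2 -2.68 ± 0.18, SE; limma adjusted p = 1e-05). It made up 9.54% ± 0.439 (SD, n = 3) of tuft and 0.975% ± 0.310 (SD, n = 4) of goblet values. MiR-183-5p, on the same strand at chr6:30169711-30169732 and with a seed of its own, had 25027, 29231 and 29002 in tuft and 3281, 2800.0, 3661 and 4756 in goblet libraries (7.78-fold, limma adjusted p = 2.48e-05).

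Of the mir-200 family, 4 of 7 members tested were called higher in tuft and 0 in goblet cells, with a median log2 difference of -1.35. The share called higher in tuft cells over all annotated miRNAs was 17.4%. All 4 called members came from the hairpins on chromosome 4. With a common total 6 of 7 were called, adding miR-200b-5p of chromosome 4 and miR-141-3p of chromosome 6 (log2 -1.06), and with median-ratio scaling 5, adding miR-200b-5p. MiR-200a-3p had 103401, 167289 and 120490.3 scaled reads in tuft and 40203, 38443, 43953 and 47070.2 in goblet libraries (3.02-fold, limma adjusted p = 0.000193). MiR-200b-3p had 42126, 49435 and 42441 in tuft and 18157, 16156, 14879 and 17449 in goblet libraries (2.68-fold, limma adjusted p = 0.000257). MiR-429-3p had 13244, 18627 and 16268 in tuft and 5560.2, 5383, 5059 and 5023 in goblet libraries (3.03-fold, limma adjusted p = 0.000424). Tuft and goblet libraries overlapped in none of the 3, as they did not in 155 of all 277 entries (56%). The fourth, miR-200a-5p, was 2.55-fold higher in tuft cells (limma adjusted p = 0.0156), a call lost without tuft replicate 1 (limma adjusted p = 0.0573). The seed AUCUUAC that it shares with miR-200b-5p was called at -1.09 on the log2 scale, and lost its call without tuft replicate 1 (-0.99) or tuft replicate 3 (-0.92).

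Members from chromosome 6 gave smaller differences. MiR-200c-3p had 42559, 47562 and 43909 scaled reads in tuft and 51196, 51782, 46107 and 42105 in goblet libraries (log2 0.09 ± 0.17, SE; limma adjusted p = 0.666). MiR-141-3p had 26141, 29775 and 30099 in tuft and 23589, 18246, 19046 and 27494 in goblet libraries (log2 -0.39 ± 0.21, SE; limma adjusted p = 0.155). The groups overlapped for both. A ratio of the 3 chromosome 4 miRNAs to the 2 of chromosome 6, formed after these values were seen and given without a test, was 2.31, 3.04 and 2.42 in tuft and 0.855, 0.856, 0.981 and 0.999 in goblet libraries. The seed groups cross the 2 loci: AACACUG, with miR-200a-3p and miR-141-3p, was called higher in tuft cells (log2 -1.29, limma adjusted p = 0.000618), and AAUACUG, with miR-200b-3p, miR-200c-3p and miR-429-3p, had a log2 difference of -0.60, too small for a call.

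The mir-181 family, known from lymphocyte development, was higher in tuft cells in 5 of 7 members tested and in goblet cells in 0, with a median log2 difference of -1.44. Over all annotated miRNAs, 17.4% were called higher in tuft cells. The 5 include miR-181a-1-5p and miR-181a-2-5p, which have 1 mature sequence and the same values. MiR-181c-5p had 6749, 9337 and 7266 scaled reads in tuft and 1795, 1120.0, 1345 and 1949 in goblet libraries (5.09-fold, limma adjusted p = 0.000287). Its neighbour miR-181d-5p, which like it lies on the minus strand of chromosome 8, had 1990.0, 1715 and 2357 in tuft and 375, 276, 639 and 469.9 in goblet libraries (4.77-fold, limma adjusted p = 0.00137). MiR-181c-3p was listed at 0 in all goblet libraries and had 216, 729.9 and 387 in tuft libraries, at least 3.94-fold higher (limma adjusted p = 0.00248). With a floor of 200 it was at -0.98 on the log2 scale and not called. Each tuft library lay above each goblet library in these 3 miRNAs. Over all 277 entries the groups did not overlap in 155 (56%). The seed CCAUCGA of the 3p arms of miR-181a-1 and miR-181c was at log2 -2.32, a lower bound in size, since goblet libraries listed both at 0. It passed the filter through tuft libraries alone and includes the miR-181c-3p values, so its call is no separate support.

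The hairpins miR-181a-1 and miR-181b-1 of that family lie on chromosome 1. MiR-181a-1-5p and miR-181b-1-5p each share their mature sequence with a second entry, so their reads cannot be placed on 1 hairpin. MiR-181a-1-5p had 8690.2, 17883 and 9768 scaled reads in tuft and 4046, 3807, 3893 and 5334 in goblet libraries (2.72-fold, limma adjusted p = 0.00303), and the entry miR-181a-2-5p has the same values. MiR-181b-1-5p, which differs from miR-181d-5p only by C12U among the 23 bases compared (the base of miR-181b-1-5p first), had 400.2, 509.6 and 1115 in tuft and 323, 338, 434 and 356 in goblet libraries and was not called (limma adjusted p = 0.198), but a common total called it higher in tuft cells (log2 -1.43). Summed over the 4 mature sequences, the shared seed ACAUUCA was higher in tuft cells by 1.74 on the log2 scale.

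**Figure D3:**
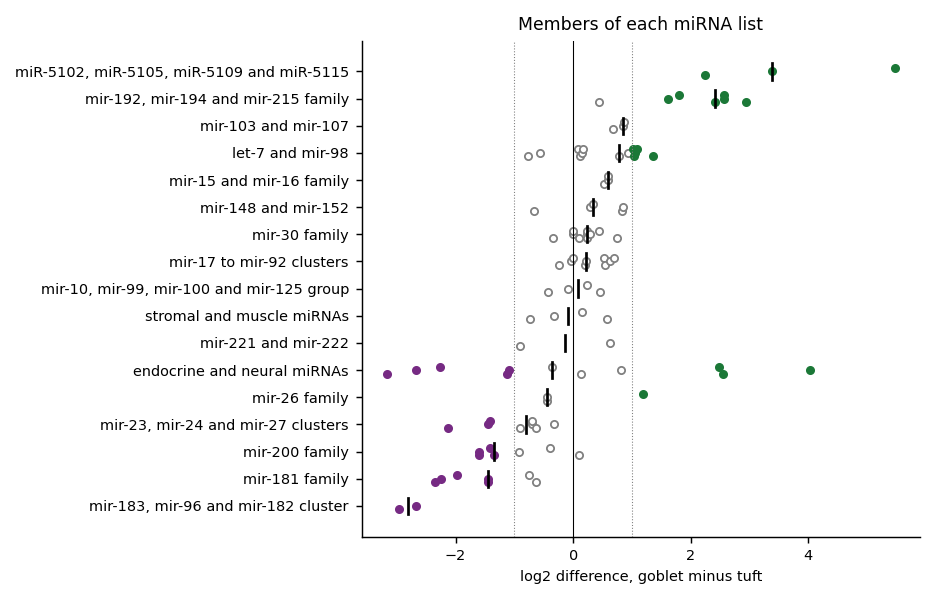
Log2 difference (goblet minus tuft) of each annotated miRNA tested, by list: filled points were called, open points were not, black bars are list medians and dotted lines mark 1 and -1. The called members of the miR-192, miR-215 and miR-194 family lie to the right, those of the mir-183, mir-200 and mir-181 groups to the left, and the endocrine and neural list has called members on both sides.

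On the list of miRNAs known from endocrine and neural cells, 3 of 11 tested were called higher in goblet cells and 5 higher in tuft cells. The median log2 difference was -0.36. Over all annotated miRNAs tested the shares were 20.6% and 17.4%, so the goblet count was not far from its share. The 3 goblet calls were all miR-7 entries, 2 of them copies of 1 mature sequence. The tuft count was 2 without tuft replicate 1 or 3, and 3 without tuft replicate 4 or goblet replicate 2. Without a tuft library miR-672-5p and miR-139-5p no longer reached 100 in 3 libraries and were not tested. MiR-375-3p, a miRNA of pancreatic islets and gut endocrine cells, had 181776, 227376 and 180327 scaled reads in tuft and 112837, 50257, 72608 and 156863 in goblet libraries (2.18-fold, limma adjusted p = 0.0167). The highest goblet library, replicate 4, came close to the lowest tuft library, and the call was lost without goblet replicate 2 (log2 -0.85) or tuft replicate 3 (limma adjusted p = 0.0756). MiR-139, which lies in Pde2a on chromosome 7 outside its exons, was higher in tuft cells in both arms. MiR-139-3p had 1860.3, 4035 and 1536 in tuft and 399, 179.7, 375 and 591 in goblet libraries (6.36-fold, limma adjusted p = 0.00194). MiR-139-5p had 438, 454 and 566 in tuft and 0, 0, 71.3 and 76.2 in goblet libraries (at least 4.83-fold with goblet values set to 100, limma adjusted p = 0.000257). MiR-672-5p, within Nexmif on the X chromosome, was listed at 0 in all goblet libraries and had 406, 1432 and 1255 in tuft libraries, at least 9.0-fold higher (limma adjusted p = 0.000454). The fifth, miR-328-3p, was 2.13-fold higher (limma adjusted p = 0.0137), a call lost without goblet replicate 2 (log2 -0.98) or tuft replicate 1 (-0.94).

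With values under 100 set to 100, miR-486-5p, known from red blood cells and muscle, had the largest difference of any annotated miRNA in favour of tuft cells. The bound for miR-672-5p, at 0 in goblet cells, leaves the order of the 2 unknown. It had 3807, 4992 and 2374 scaled reads in tuft and 61.7, 100.3, 83.7 and 114 in goblet libraries, the goblet values resting on 13 to 27 reads, and was 34.4-fold higher in tuft cells (limma adjusted p = 1.94e-05). The entry miR-3107-5p carried nearly the same values, so the reads behind the 2 names may be shared. Of the 5 entries in the list of red blood cell miRNAs only miR-486-5p was listed above 0, and the defining members miR-144 and miR-451 were at 0 in all 7 libraries. MiR-5119, at chr11:98262638-98262656 inside an exon of the kinase gene Cdk12, had 1601, 2321 and 1064 in tuft and 138, 50.1, 89.9 and 222 in goblet libraries (11.95-fold, limma adjusted p = 0.000257). Fragments of the Cdk12 messenger and a mature miRNA cannot be told apart in such values.

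Smaller rises in tuft cells included the mir-23, mir-24 and mir-27 clusters, with 3 of 8 members tested called higher, 0 in goblet cells and a median log2 difference of -0.80. Over all annotated miRNAs the share called higher in tuft cells was 17.4%. A common total or median-ratio scaling called 6 of 7 tested higher in tuft cells (medians -1.57 and -1.32), and 1 stayed called without goblet replicate 2 or 3 or tuft replicate 1 or 3. MiR-27a-3p had 1065, 1219 and 566 scaled reads in tuft and 266, 196, 143 and 241 in goblet libraries (4.38-fold, limma adjusted p = 0.00246). The calls of miR-23a-3p and miR-23b-3p were less firm. MiR-23a-3p had 562, 434 and 51.05 in tuft and 109, 100.3, 74.4 and 114 in goblet libraries, so tuft replicate 4 lay below every goblet library, and its adjusted p of 0.0427 (limma) rose to 0.0647 or more without any one of goblet replicates 1 to 4 or tuft replicates 1 and 3. MiR-23b-3p (limma adjusted p = 0.025) was lost without goblet replicate 2 or 3 or tuft replicate 1 or 3, with adjusted p from 0.052 to 0.0801. MiR-301a-3p, which has the seed of the miR-130 group, had 335, 627 and 455 in tuft and 94.96, 150.4, 155 and 0 in goblet libraries (3.70-fold, limma adjusted p = 0.00194).

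The let-7 and mir-98 list had 5 of 13 members called higher in goblet and 0 in tuft cells, with a median log2 difference of 0.78. The shares over all annotated miRNAs were 20.6% and 17.4%. None of the 5 kept its call when libraries were rescaled to a common total or by the median ratio, where 2 and 1 members were called higher in tuft cells. Let-7 miRNAs are abundant in differentiated cells and share the seed GAGGUAG. Summed over its 9 mature sequences, that seed group had a log2 difference of 0.05 and was not called (limma adjusted p = 0.72). Let-7a, let-7c and let-7f each have more than 1 entry with the same mature sequence, so the 13 members are not all distinct. Let-7g-5p had 34985, 39262, 31123 and 19569.8 scaled reads in goblet and 9734, 14165 and 11967 in tuft libraries (2.56-fold, limma adjusted p = 0.00228). Let-7b-5p had 189830.1, 143755, 223583 and 198129 in goblet and 283398, 275743 and 272092 in tuft libraries, higher in every tuft library, with a log2 difference of -0.57 ± 0.16 (SE; limma adjusted p = 0.0137) that was too small for a call. Let-7c-2-5p, among the 5 most abundant entries of goblet cells, had 157661, 117105, 146406 and 146348 in goblet and 137427, 111822 and 134142 in tuft libraries, and the groups overlapped. Leaving out goblet replicate 1 left 2 list members called and leaving out tuft replicate 3 left 1; let-7a-1-5p (log2 0.93 and 0.93) and let-7d-5p (log2 0.97 and 0.80) were lost in both, and miR-98-5p (log2 0.84) in the second. The mir-26 family had 1 of 3 called higher in goblet cells, miR-26b-5p (2.29-fold), a call that a common total ended (log2 0.52). That scaling called the 2 miR-26a entries, which have 1 mature sequence, higher in tuft cells.

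Many families were not called in either direction. These were the mir-17 to mir-92 clusters (9 tested, median log2 difference 0.22), the mir-30 family (10 tested, 0.23), mir-148 and mir-152 (5 tested, 0.33), mir-103 and mir-107 (3 tested, 0.85), mir-15 and mir-16 (3 tested, 0.59), the mir-10, mir-99, mir-100 and mir-125 group (4 tested, 0.08) and mir-221 and mir-222 (2 tested, -0.14). The lack of a call does not show that levels were equal. The mir-34 and mir-449 family and the Dlk1-Dio3 cluster had no member at 100 in 3 libraries. The listed members of mir-29 were not tested either; a merged entry named miR-29abc-3p, singled out after its values were seen, was called higher in goblet cells, with 342, 376, 487 and 438 scaled reads in goblet and 205, 213 and 149 in tuft libraries. That call (log2 1.12) was lost under each rescaling (0.45 with a common total), without goblet replicate 3 (limma adjusted p = 0.0712) and without tuft replicate 4 (log2 0.96).

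Leukocyte, stromal and endothelial markers were low. The red blood cell list was not low in tuft cells, through miR-486-5p alone: it summed to 2374 to 4992 scaled reads in tuft and 61.7 to 114 in goblet libraries. Of 10 entries in the leukocyte list 4 were above 0 in any of the 7 libraries, summing to 223 to 593 scaled reads in goblet and 306 to 1570.0 in tuft libraries, and the 1 tested, miR-146a-5p, was not called. Stromal and muscle entries summed to 597 to 752 and 302 to 847, with 0 of 4 tested called. Both endothelial entries were at 0. Epithelial miRNAs led in both populations, and no list of miRNAs that define goblet or tuft cells was at hand, so the labels could be checked only as epithelial.

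The 4 names miR-5102, miR-5105, miR-5109 and miR-5115 are described together here. Summed over all offsets they made up 11.8% ± 4.64 (SD, n = 4) of goblet and 1.92% ± 0.317 (SD, n = 3) of tuft values. MiR-5115 had 105497, 213958, 65187 and 135534 scaled reads in goblet and 9377, 1019 and 1982 in tuft libraries, 44.6-fold apart (limma adjusted p = 0.000183). That was the largest difference with values under 100 set to 100, where miR-7b-5p has only a lower bound. MiR-5109 was 10.4-fold and miR-5105 4.75-fold higher in goblet cells. MiR-5105 and miR-5109 were listed at 16 offsets each and had only 3.72% ± 0.527 and 6.59% ± 1.02 (SD, n = 4) of their goblet values under the name without an offset. That name held 51.8% ± 4.03 (SD, n = 4) of the value of miR-5115 in goblet and 25.5% ± 19.1 (SD, n = 3) in tuft cells. Another 25 names, with a summed value of at least 10000 in each library, held at least 85.9% under it in every library, and 24 of them at least 90%. That cutoff leaves out less abundant names, and miR-5115 itself summed to 8806 in its lowest tuft library. Some less abundant miRNAs also had large isomiRs. The offset 1 isomiR of miR-10a-5p averaged 50.5% of the annotated value in goblet and 42.7% in tuft cells. For miR-183-5p the means were 34.9% and 51.9%. Whether the entries of the 4 names come from miRNA hairpins or from fragments of longer RNAs was not tested.

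**Figure D4:**
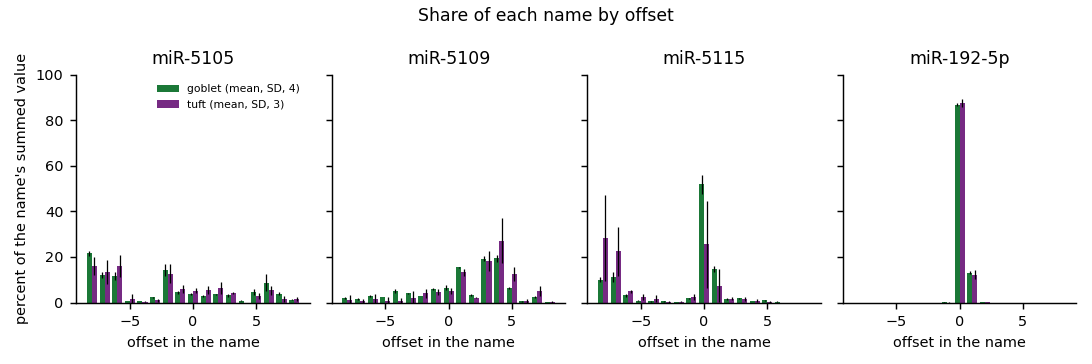
Percent of the value of each name found at each offset in its entry names (mean and SD over 4 goblet and 3 tuft libraries). MiR-192-5p sits at offsets 0 and 1, miR-5105 and miR-5109 are spread from -8 to 8, and miR-5115 has 51.8% of its goblet value at 0.

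Ratios within a library, which no scale factor can move, were tested for 50 isomiRs and 10 hairpins. The isomiR ratio was higher in goblet cells for 1 of 50 and higher in tuft cells for 6, 14% in all. The 6 belong to miR-5109 and miR-5115. The other was the isomiR of miR-203-3p, a miRNA of differentiating epithelium, with an offset of 1: it was 137%, 127%, 120.0% and 119.5% of the annotated miR-203-3p value in goblet and 38.7%, 16.6% and 73.4% in tuft libraries. Its log2 ratio was higher in goblet cells by 1.80 ± 0.46 (SE, limma adjusted p = 0.0276), and was lost without goblet replicate 1, 2 or 3 (limma adjusted p from 0.0763 to 0.0884). For miR-192-5p the offset 1 isomiR held 15.2% ± 0.91 of the annotated value in goblet (SD, n = 4) and 14.1% ± 2.30 in tuft cells (SD, n = 3), a difference smaller than the spread between libraries.

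Of 10 hairpins with both arms measured, 1 (10%) changed its arm ratio. Let-7d had a 5p to 3p ratio of 25.4, 26.2, 17.2 and 10.6 in goblet and 4.98, 3.59 and 8.73 in tuft libraries (log2 difference 1.79 ± 0.43, SE; limma adjusted p = 0.0155). All goblet values exceeded the tuft values, with goblet replicate 4 closest to them, and the call was lost without goblet replicate 1 or 2 or tuft replicate 1 (limma adjusted p from 0.0606 to 0.0717). The hairpin of miR-215 had a 5p to 3p ratio of 182.8 ± 55.7 in goblet (SD, n = 4) and 266 ± 97.5 in tuft cells (SD, n = 3), and miR-194-1 had 19.9 ± 1.53 and 23.6 ± 17.9, neither called.

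The other 6 populations with values, sorted by Sox9, CD24 or Lgr5 or as Paneth cells and sequenced more deeply, place the goblet and tuft levels. They held 1744418 to 30958439 reads, more than any of the 7 libraries, and all but 2 Paneth libraries have another label format, so they are shown without a test. MiR-215-5p averaged 3003221 ± 910604 (SD, n = 4) scaled reads in Sox9 Negative cells, above goblet cells, and 155590 ± 61943 (SD, n = 6) in Paneth cells, below tuft cells. MiR-7b-5p averaged 34870.0 ± 7424 in Sox9 High and 27799 ± 9822 in Sox9 Low cells (SD, n = 4 each), far above goblet cells at 1763 ± 739 (SD, n = 4). MiR-182-5p was 107155 ± 13171 (SD, n = 4) in Sox9 High cells, the nearest population to tuft cells at 298066 ± 20218 (SD, n = 3). MiR-672-5p was listed in Sox9 High cells at 1205 ± 578 (SD, n = 4), in libraries that overlap the tuft libraries, and at 0 in every Sox9 Negative library. MiR-486-5p reached 356 in its highest library outside tuft cells, in CD24Low, and miR-5119 reached 81.6 in its highest library outside goblet and tuft cells, in Sox9 Negative. MiR-5115 outside goblet cells was highest in Sox9 Negative cells, at 11313 ± 10922 (SD, n = 4).

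**Figure D5:**
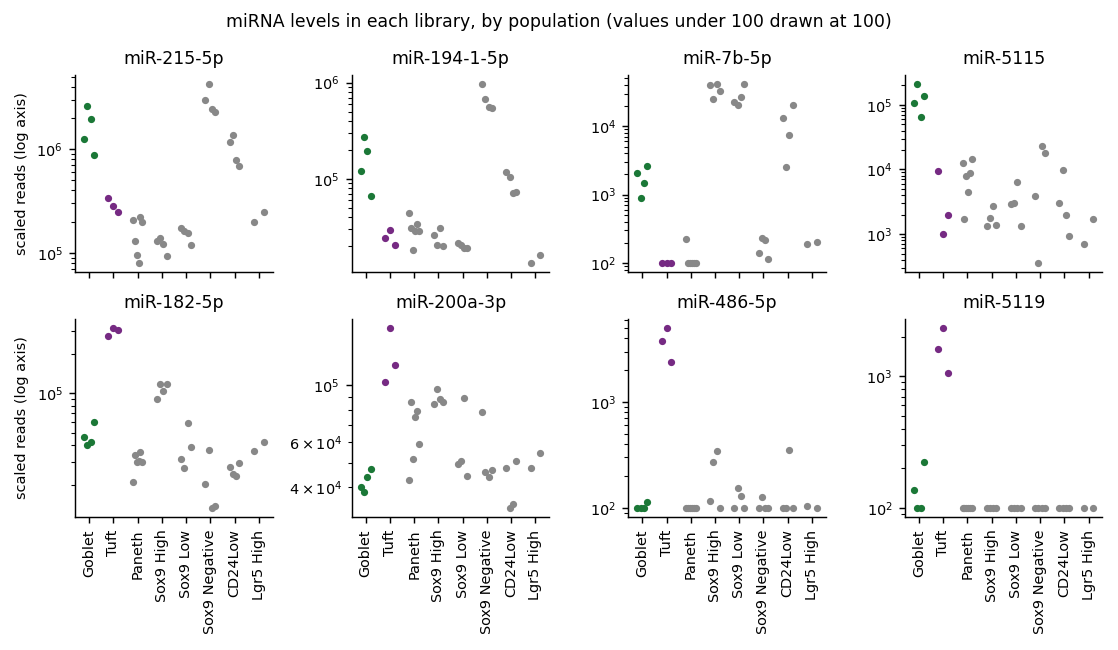
Levels of 8 miRNAs in each library of the 8 populations, in scaled reads on a log axis, 1 point a library, with values under 100 drawn at 100. Sox9 Negative, goblet and CD24Low libraries lead for miR-215-5p, Sox9 High and Sox9 Low for miR-7b-5p, and tuft libraries stand highest for miR-182-5p, miR-486-5p and miR-5119.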

How the data were processed

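Small RNA libraries of sorted mouse small intestinal cells were analysed from 1 deposited table of signal values (scaled reads), in which the authors divided reads by 1 factor per library, as the values show; no tool, aligner or counter is stated in the labels, and the submitters' processing notes name genome build mm9. Within each library every value is a whole multiple of the value of 1 read, to 0.001 reads. A further 3 columns matched no sample and were not used. Values under 100 were raised to 100 and entries at 100 or more in at least 3 of the 7 libraries were fitted with limma 3.58.1 (R 4.3.3) on the log2 scale with a trend in the prior variance, goblet minus tuft, with no covariate; the 277 p-values were adjusted together. Where every library of a population was under 100 the fold is a lower bound. Seed groups, isomiR ratios and arm ratios were fitted alike, each adjusted over its own set. Shares used an exact permutation test. Named were the 12 largest called differences each way among annotated miRNAs with a mean of at least 100, the 5 most abundant entries of each population, up to 4 called members of each list, called ratios, and called seed groups with at least 2 mature sequences. Members, lists and tests were chosen with earlier results of these data known. Sequences and positions came from RefSeq (GRCm38.p6); tables were made with Python 3.11.15 and pandas 2.3.3, and the fits were tested on simulated data. Other floors, filters and scalings, a replicate block and leaving out each library were tried.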

Additional observations from a re-analysis of the deposited data

Results flagged for a closer look

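In the 4 goblet libraries, 2 of 48 sets of values had 1 library far from the others by Dixon's criterion, the ratio of its gap to the whole range; chance alone flags about 1 set in 20. For miR-181a-1-5p the ratio was 0.844: goblet replicate 4 had 5334 scaled reads and the others 3807 to 4046, all below the tuft libraries. For the library share of let-7b-5p the ratio was 0.889: goblet replicate 2 had 2.34% and the others 4.28% to 4.52%, all below the tuft libraries.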

How the results depend on the processing

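Of 47 called miRNAs given singly, 29 stayed called under every alternative that gave a value, of up to 19, and none changed sign. Requiring 100 in all 7 libraries left 57 entries higher in goblet and 25 in tuft cells, from fewer entries tested (153); a common total gave 59 entries and 23 seed groups higher in tuft cells. Leaving out 1 library gave 87 to 93 entries higher in goblet and 27 to 36 in tuft cells. Whether equal replicate numbers mark paired libraries is not given in the labels and was not settled by their correlations. These were -0.04, 0.10 and 0.20 for numbers 1, 3 and 4. Goblet replicates 3 and 4 correlated best with the tuft library of their own number, and goblet replicate 1 did not. A replicate block gave 89 and 31 entries, 0 isomiR ratios higher in goblet and 3 in tuft cells, and 0 arm ratios. IsomiR ratios with both values at least 200 gave 0 and 2, with both above 0 gave 2 higher in goblet cells, and with all 8 populations in the fit 3; leaving out 1 library gave 0 to 2 higher in goblet and 1 to 15 in tuft cells, the 15 without tuft replicate 1 and 1 without goblet replicate 1 or 3. Arm ratios called were 2 with all 8 populations and 0 to 1 when 1 library was left out. With annotated miRNAs as the total, the share difference was -9.08 percentage points for miR-182-5p. For the miR-5102 to miR-5115 names it was 3.11, but their entries with an offset were then left out of the share as well. With all their offsets and all entries as the total it was 9.88. A rescaling without those names, chosen after seeing the data, gave 73 and 51 entries. The planned edgeR and DESeq2 tests were not run: values are whole multiples of 1 read, but the lowest listed are 10 to 12 reads, so the unit could not be established as counts from its smallest step. Depth limits low entries: a 0 can hold up to 9 reads. The cause of these changes was not tested.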
